A study of Homo sapiens with 6 samples.

Results

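Chromatin accessibility was examined at 44 human genes of the interferon response and of nucleic-acid sensing, a set given by gene symbol, among 20033 protein-coding genes. All 44 were found by symbol in the RefSeq gene table of GRCh38, the build (hg38) of the deposited peak lists. The assay was ATAC-seq, in which a transposase cuts accessible DNA, in nuclei of Jurkat cells, an established line from a human T-cell leukaemia. The 6 libraries comprised 3 labelled normal gravity (NG 1 to NG 3) and 3 labelled simulated microgravity (SMG 1 to SMG 3), each from nuclei of 50000 cells that shared the same lysis and a transposition of 30 min at 37 °C. Per the labels, microgravity was simulated on isolated nuclei, turned at 30 degrees per second for 30 min in a random positioning machine, so that no response of intact cells was measured. This protocol text is the same for all 6 samples, only the titles and the treatment label tell the groups apart, and whether rotation and transposition ran together is not stated. The labels name no interferon, no nucleic acid and no other stimulus in either group, and do not say whether the replicates came from separate cultures.

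Interferons are secreted when a cell detects foreign or misplaced nucleic acid. Sensors such as cGAS for DNA and MDA5 for double-stranded RNA signal through the adaptors STING and MAVS to transcription factors of the IRF family, which switch on interferon genes. Secreted interferon binds its receptors, and JAK kinases then activate a complex that includes STAT2 and IRF9 and binds the interferon-stimulated response element (ISRE) in the promoters of antiviral genes such as MX1, OAS1 and IFIT1. In T cells the pathway limits viral replication and shapes growth and survival.

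A gene was called open in a library if a deposited peak overlapped, by at least 1 bp, the stretch from 1 kb before to 1 kb after either end of the gene. A missing peak means that no signal passed the authors' calling threshold, not that the chromatin was closed, and an open gene end does not show expression. In a bulk library a weak peak may stem from few nuclei or from a low level in all, which cannot be told apart. Each peak is described by its score percentile, the rank of its −log10 q-value within its own library, which places it in that library and is not compared between groups. The lists held 37782 to 43713 peaks. They hold no read counts. The genome-wide background recovered from the deposited values was 1.17 fragments per base in NG 1, the lowest, and 1.42 to 1.77 in the other 5 libraries. The labelled cell type was checked on markers. Of these 10 of 10 T cell genes were open in every library, while of 5 B cell, 6 myeloid, 5 NK cell and 3 erythroid genes at most 1 per type was open in a library (CD68 and NKG7 in all 6).

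The promoters of 8 members are shown because they carry the letters that the interferon factors bind and because their peaks ranged from every library to none. Each run holds 300 bases of RefSeq sequence (GRCh38.p14), 250 before and 50 from the transcription start, 5′ to 3′ on the strand of the gene. Capitals mark an ISRE core (GAAA, any 2 bases, then GAAA, on either strand, overlaps allowed) or a GAS element (TTCNNNGAA, its own reverse complement in form), a site of the STAT family. ISG15, IFIH1 and IRF1 had a peak on this stretch in all 6 libraries, IFIT1 in 5, IFITM1 in 4, IFI44L in 3, and IFIT3 and MX1 in none.
ISG15 (chr1:1013247-1013546, plus strand): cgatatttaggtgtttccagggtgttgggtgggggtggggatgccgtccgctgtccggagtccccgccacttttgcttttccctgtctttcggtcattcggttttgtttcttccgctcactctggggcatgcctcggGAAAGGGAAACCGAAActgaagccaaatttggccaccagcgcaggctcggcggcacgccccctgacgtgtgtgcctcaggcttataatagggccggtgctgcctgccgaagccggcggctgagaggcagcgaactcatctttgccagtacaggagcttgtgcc
IFIH1 (chr2:162318635-162318934, minus strand): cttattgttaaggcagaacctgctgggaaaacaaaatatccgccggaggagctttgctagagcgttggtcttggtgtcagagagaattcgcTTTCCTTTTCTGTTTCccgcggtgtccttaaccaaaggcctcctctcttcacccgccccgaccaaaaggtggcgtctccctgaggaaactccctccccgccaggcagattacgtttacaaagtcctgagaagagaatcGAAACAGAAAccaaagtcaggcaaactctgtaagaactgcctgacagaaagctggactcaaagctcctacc
IRF1 (chr5:132490724-132491023, minus strand): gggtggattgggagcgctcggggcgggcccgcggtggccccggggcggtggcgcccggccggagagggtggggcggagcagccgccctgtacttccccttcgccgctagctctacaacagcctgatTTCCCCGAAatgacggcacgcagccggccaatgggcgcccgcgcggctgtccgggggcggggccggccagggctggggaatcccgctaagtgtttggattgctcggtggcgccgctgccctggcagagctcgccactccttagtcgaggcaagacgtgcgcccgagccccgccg
IFIT1 (chr10:89392373-89392672, plus strand): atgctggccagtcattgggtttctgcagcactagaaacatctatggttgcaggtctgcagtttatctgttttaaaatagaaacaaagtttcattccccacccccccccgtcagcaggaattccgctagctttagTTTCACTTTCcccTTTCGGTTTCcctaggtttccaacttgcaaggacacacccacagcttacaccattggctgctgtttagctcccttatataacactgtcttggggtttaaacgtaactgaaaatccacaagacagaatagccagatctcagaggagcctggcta
IFITM1 (chr11:313790-314089, plus strand): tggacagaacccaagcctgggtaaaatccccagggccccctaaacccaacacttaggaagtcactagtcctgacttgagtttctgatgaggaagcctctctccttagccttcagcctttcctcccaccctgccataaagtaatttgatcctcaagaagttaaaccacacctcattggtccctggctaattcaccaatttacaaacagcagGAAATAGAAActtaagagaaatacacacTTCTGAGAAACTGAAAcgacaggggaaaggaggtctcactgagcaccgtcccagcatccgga
IFI44L (chr1:78620198-78620497, plus strand): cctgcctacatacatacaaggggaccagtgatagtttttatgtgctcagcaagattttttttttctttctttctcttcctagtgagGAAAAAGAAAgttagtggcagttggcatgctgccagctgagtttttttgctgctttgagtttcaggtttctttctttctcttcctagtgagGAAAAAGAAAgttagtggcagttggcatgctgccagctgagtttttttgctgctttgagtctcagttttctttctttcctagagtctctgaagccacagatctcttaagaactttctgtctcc
IFIT3 (chr10:89327747-89328046, plus strand): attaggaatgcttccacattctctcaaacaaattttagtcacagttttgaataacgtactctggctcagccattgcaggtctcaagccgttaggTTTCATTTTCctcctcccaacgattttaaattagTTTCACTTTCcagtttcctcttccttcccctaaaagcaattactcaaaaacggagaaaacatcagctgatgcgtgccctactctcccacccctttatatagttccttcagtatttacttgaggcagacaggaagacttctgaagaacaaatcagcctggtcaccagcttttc
MX1 (chr21:41420308-41420607, plus strand): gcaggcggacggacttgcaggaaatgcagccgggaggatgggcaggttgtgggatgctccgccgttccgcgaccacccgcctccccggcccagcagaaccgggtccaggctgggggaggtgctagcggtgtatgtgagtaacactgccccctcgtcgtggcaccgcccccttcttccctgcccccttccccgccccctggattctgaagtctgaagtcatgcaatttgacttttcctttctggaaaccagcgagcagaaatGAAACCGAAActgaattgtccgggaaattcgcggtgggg
In ISG15 the ISRE cores began 113 and 107 bases before the start and overlapped. In IFIT1 they began 116 and 103 bases before it. The IFIT3 stretch, under no peak, holds 2 cores, as many as that of ISG15 or IFIT1. A match of letters is not evidence of binding.

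Of the 44 members, 22 (50.0%) were open in all 6 libraries, 13 (29.5%) in 1 to 5 and 9 (20.5%) in none. The shares among all protein-coding genes were 46.6%, 13.7% and 39.7%. By role, 4 of 5 sensors and adaptors, 3 of 4 receptors, 5 of 9 transcription factors and 10 of 26 effectors were open throughout. These groups are small, and a difference between roles was not tested. The counts also depend on the window, as IFI16 and IFNGR2 had a peak within 1 kb of a listed start in all 6 libraries. Among the members open in all 6 libraries the mean score percentile had a median of 73.7 and ran from 30.6 (ADAR) to 96.4 (STAT2), against a median of 81.0 for all genes open in all 6. Members open in some libraries had weaker peaks, with a median of 24.8, close to the 26.9 of all genes open in 1 to 5 libraries.

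**Figure D1:**
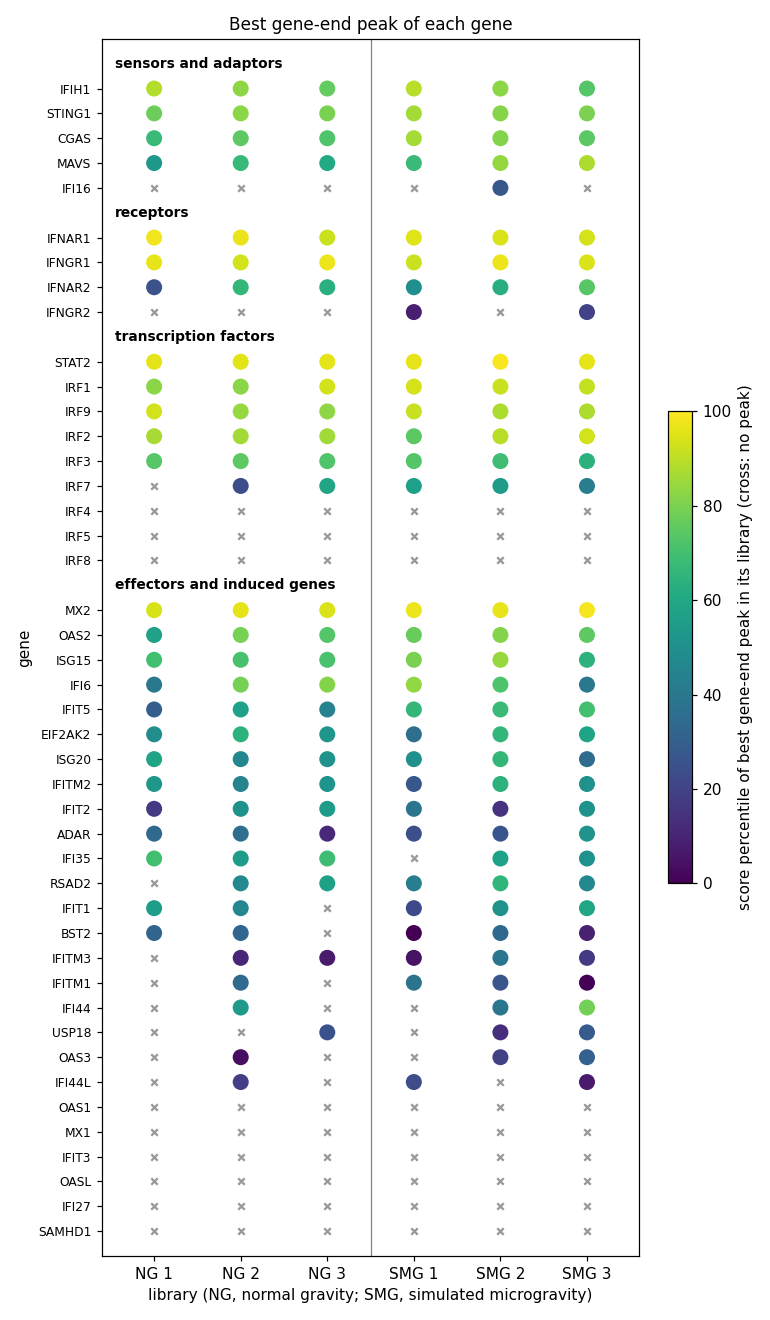
Score percentile (colour, 0 to 100) of the best gene-end peak of each of the 44 genes in each of the 6 libraries, grouped by role; a cross marks a library without a peak. The brightest complete rows are STAT2, MX2, IFNAR1 and IFNGR1, and 10 of the 13 rows with peaks in some libraries are effectors.

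Sensors and adaptors were mostly open in both groups. IFIH1, which encodes the RNA sensor MDA5, stood at score percentiles of 88.6, 82.8 and 75.8 in the NG and 89.3, 82.5 and 73.3 in the SMG libraries. Its region, on chromosome 2 (162317798 to 162319220), covered the transcription start and reached the end window of GCA, a neighbouring gene. STING1, the adaptor of cytosolic DNA sensing, stood at score percentiles of 77.7, 82.6 and 79.98 in the NG and 86.2, 82.01 and 80.1 in the SMG libraries, and its region on chromosome 5 (139481850 to 139482976) covered the higher-coordinate end of the gene. Both genes thus ranked in the upper part of every library.

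CGAS, the DNA sensor that makes the second messenger for STING, stood at score percentiles of 67.7, 75.2 and 72.5 in the NG and 86.3, 81.6 and 74.8 in the SMG libraries. The merged region lay outside the gene, 767 bp beyond its lower-coordinate end on chromosome 6 (73421990 to 73422944), and 0 regions lay within the CGAS span in any library. No region reached the window at the higher-coordinate end of CGAS. The gene has no entry among the listed starts, so an open CGAS promoter is not shown by this count. MAVS, the mitochondrial adaptor of RNA sensing, was open throughout at a mean percentile of 69.97 ± 13.4 (SD over 6 libraries). IFI16, a nuclear DNA-binding sensor, had a gene-end peak in SMG 2 alone, at a percentile of 27.0, in a region (chromosome 1, 159055388 to 159055649) that also touches the end window of AIM2, another DNA sensor.

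Receptor genes held some of the strongest peaks of the set. IFNAR1, a chain of the type I interferon receptor, stood at score percentiles of 97.96, 96.6 and 92.2 in the NG and 95.3, 94.5 and 93.5 in the SMG libraries. IFNGR1, the ligand-binding chain of the interferon gamma receptor, stood at score percentiles of 96.3, 93.3 and 97.0 in the NG and 91.9, 97.2 and 94.2 in the SMG libraries. Both gene ends were near the top of every list, with summits of 57 to 91 fragments for IFNGR1 and 58 to 85 for IFNAR1. IFNAR2, the other type I chain, was weaker and more variable, at 56.8 ± 17.3 (SD over 6 libraries), and its best region on chromosome 21 (33266222 to 33267287) lay beyond the gene, at the start of IL10RB. A weaker region at the lower-coordinate end of IFNAR2 itself (33229556 to 33231211, mean percentile 40.9) was held by all 6 libraries.

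IFNGR2, the signalling chain of the interferon gamma receptor, was counted as open in SMG 1 (percentile 8.63) and SMG 3 (19.6) and in 0 NG libraries. That count turned on the edge of the window. The region on chromosome 21 (33403878 to 33404609) was held by all 6 libraries and began 996 bp from the gene end, so that the peaks of SMG 1 and SMG 3 reached into the window and those of the other 4 libraries began farther inside the gene. The NG 1 and NG 2 peaks began 1395 and 1420 bp inside the gene and did not overlap the NG 3 peak (1017 to 1216 bp). Wider SMG peaks joined them into 1 region, which lay 465 bp from the transcription start listed by RefSeq.

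The transcription factors held both the strongest member and 3 without a gene-end peak. STAT2, a subunit of the complex that binds the ISRE, stood at score percentiles of 95.7, 95.6 and 95.8 in the NG and 96.2, 98.9 and 96.4 in the SMG libraries, the highest mean of the 44 members. Its summits held 49, 80 and 69 fragments in the NG and 70, 107 and 74 in the SMG libraries, and the lowest of these was in NG 1, the library of lowest background. IRF9, the DNA-binding subunit of the same complex, stood at score percentiles of 92.98, 84.01 and 83.01 in the NG and 91.7, 87.7 and 87.7 in the SMG libraries, in a region shared with the end of RNF31.

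IRF1, an early factor induced by interferon gamma, stood at score percentiles of 82.5, 82.6 and 93.1 in the NG and 93.4, 92.2 and 91.4 in the SMG libraries. IRF2, a related factor that often opposes IRF1, stood at score percentiles of 86.9, 86.1 and 85.8 in the NG and 74.9, 89.8 and 93.3 in the SMG libraries. Neither fell under 74.9 in any library. IRF3, the constitutive factor downstream of STING and MAVS, was open throughout at 71.3 ± 4.20 (SD over 6 libraries), in a region at the shared end with BCL2L12. IRF7, the factor that amplifies interferon production, lacked a peak in NG 1 and stood at 23.2 in NG 2, 59.0 in NG 3, and 56.5, 55.1 and 42.1 in the SMG libraries, so that its values in the 2 groups overlapped.

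IRF4, IRF5 and IRF8, factors best known from lymphoid and myeloid cells, lacked a gene-end peak throughout. IRF8 nevertheless held a strong region inside the gene, described with the other internal starts. IRF5 held a region at an internal start on chromosome 7 (128941076 to 128941353) in NG 1 and NG 2 and in no SMG library, at a mean percentile of 39.6. IRF4 held 3 regions within its span, each in 1 to 3 libraries, at mean percentiles of 3.77 to 23.4.

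The effectors divided into 10 genes open throughout, 10 open in some libraries and 6 open in none. MX2, a dynamin-like GTPase that restricts retroviruses, stood at score percentiles of 93.8, 96.01 and 94.3 in the NG and 97.2, 96.4 and 98.5 in the SMG libraries. OAS2 (mean percentile 73.9), an RNA-activated oligoadenylate synthetase, ISG15 (73.4), a ubiquitin-like protein, and IFI6 (65.97), a mitochondrial protein, followed. IFIT5 (55.7), an RNA-binding protein, EIF2AK2 (54.2), the kinase PKR, ISG20 (50.98), an exonuclease, and IFITM2 (48.7), a membrane protein that blocks viral entry, were intermediate. IFIT2 (37.7) and ADAR (30.6), the RNA-editing enzyme, were weakest. Within a gene the percentiles varied by an SD of 1.23 (STAT2) to 20.6 (IFI6) over the 6 libraries, for the 22 members open throughout.

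Neighbouring genes of 1 family differed. In the IFIT cluster of chromosome 10, IFIT2 and IFIT5 were open in all 6 libraries, IFIT1 in 5 and IFIT3 in none. In the OAS cluster of chromosome 12, OAS2 was open in all 6, OAS3 in 3 and OAS1 in none, and the related OASL, elsewhere on that chromosome, in none. MX2 and MX1 lie side by side on chromosome 21, with all 6 and 0 libraries open. In the IFITM cluster of chromosome 11, IFITM2 was open in 6, IFITM3 in 5 and IFITM1 in 4. These families hold similar copies, and the handling of reads that fit more than 1 place was not found among the labels.

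Effectors open in some libraries are given one by one. IFIT1, an RNA-binding antiviral protein, stood at 55.3 in NG 1, 46.4 in NG 2, and 22.1, 50.4 and 59.4 in the SMG libraries, with no peak in NG 3. RSAD2 (viperin, a radical enzyme that blocks viral replication) lacked a peak in NG 1 and stood at 47.0 and 57.3 in the other NG and 42.2, 65.4 and 47.1 in the SMG libraries, in a region shared with CMPK2. IFI35, a regulator of innate signalling, stood at 69.9, 54.8 and 69.0 in the NG libraries and at 57.7 and 51.1 in SMG 2 and SMG 3. IFI35 was the only member of these 13 with more NG than SMG libraries open.

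BST2 (tetherin, which holds budding virus at the cell surface) stood at 32.1 in NG 1, 33.0 in NG 2 and at 0.0249, 33.7 and 9.22 in the SMG libraries. The SMG 1 peak was thus among the very weakest of its list. IFITM3, an entry inhibitor, had peaks at 10.6 and 7.26 in NG 2 and NG 3 and at 4.70, 38.7 and 16.97 in the SMG libraries. The merged region began 304 bp beyond the gene, at the end of the antisense gene IFITM3-AS1, a start set by the SMG 2 peak, and no peak came within 1 kb of the listed IFITM3 start in any library. IFITM1, its neighbour, was open in NG 2 (34.1) and in all 3 SMG libraries (38.2, 26.3 and 0.476).

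The other 4 effectors were open in 3 libraries, 1 NG and 2 SMG. IFI44, a GTP-binding antiviral protein, stood at 53.9 in NG 2, 39.4 in SMG 2 and 78.7 in SMG 3. IFI44L, its paralogue, stood at 18.2 in NG 2, 22.995 in SMG 1 and 7.16 in SMG 3. OAS3 stood at 3.23 in NG 2, 19.3 in SMG 2 and 30.8 in SMG 3, and USP18, the protease that removes ISG15 and restrains the receptor, at 24.8 in NG 3, 13.1 in SMG 2 and 28.3 in SMG 3. Of these 4 genes IFI44 had the highest mean percentile (57.3), and the others averaged 16.1 to 22.1. The 13 members open in some libraries had summits of 9 to 35 fragments, against 9 to 107 for the members open throughout.

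The 9 members without a gene-end peak in any library were IRF4, IRF5, IRF8, MX1, OAS1, OASL, IFIT3, IFI27 and SAMHD1. SAMHD1, which depletes nucleotides and restricts retroviruses, IFI27, OAS1 and OASL also had 0 regions anywhere within the gene. The listed SAMHD1 promoter (chromosome 20, 36951659 to 36951958) holds 22 CpG dinucleotides, and that of OAS1 holds 1, so that both CpG-rich and CpG-poor starts were among them.

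The gene-end window missed starts that lie inside a gene. RefSeq lists 47 starts for 32 of the members, and 6 members had a peak within 1 kb of a listed start in more libraries than at a gene end, namely IFI16, IFNGR2, IRF5, IRF8, MX1 and RSAD2. The 12 members without an entry were CGAS, STING1, IFNAR2, IRF2, IRF3, IRF7, MX2, OAS2, OASL, IFIT2, IFITM2 and USP18. The strongest was IRF8, whose region on chromosome 16 (85902419 to 85903509) covered both listed starts, 3668 and 3853 bp inside the gene, at score percentiles of 82.8, 83.9 and 83.99 in the NG and 84.9, 82.8 and 71.4 in the SMG libraries. All 6 libraries held it. IFI16 held a region at the start 9931 bp inside the gene (159009697 to 159010056) in all 6 libraries, at a mean percentile of 36.2, and one at the start 9015 bp inside it (159008776 to 159009173) in all but NG 1. At MX1, NG 3 and SMG 1 held a region at the start 5681 bp inside the gene (41425877 to 41426285).

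**Figure D2:**
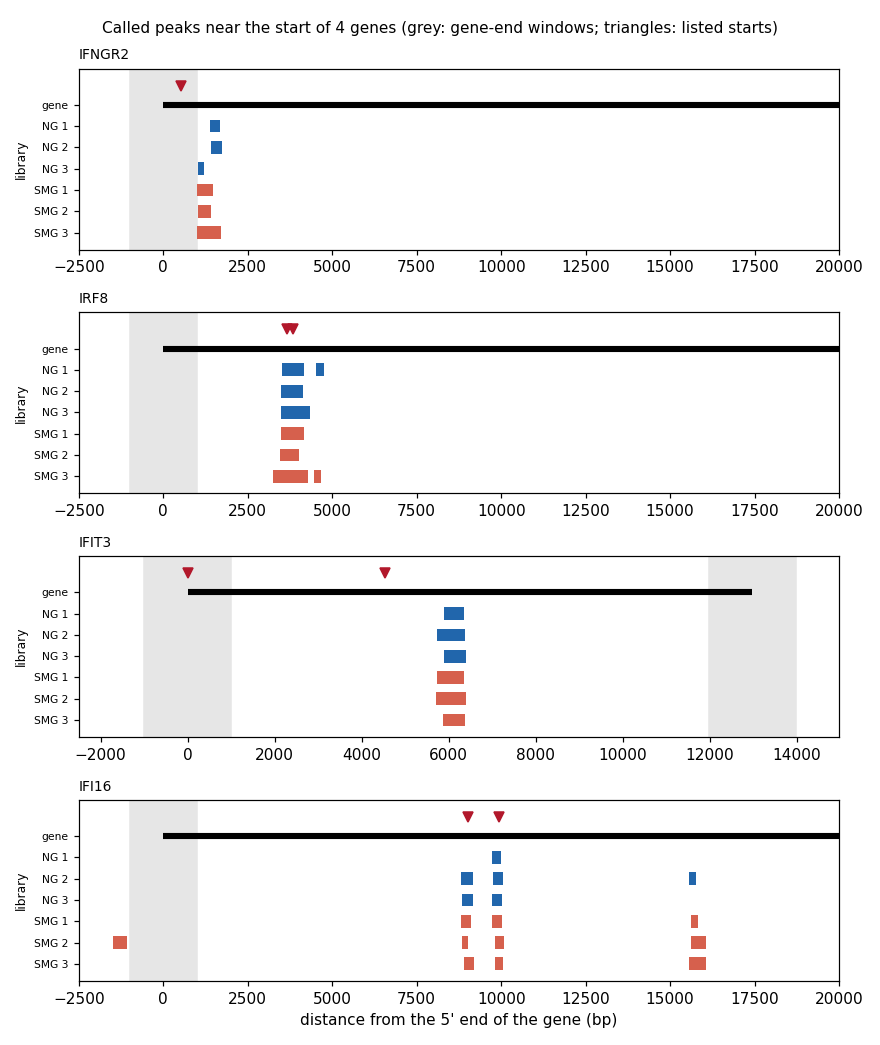
Called peaks (bars; blue NG, red SMG) by distance in bp from the 5′ end of IFNGR2, IRF8, IFIT3 and IFI16, with the gene-end windows in grey and the starts listed by RefSeq as triangles. In IRF8 and IFIT3 all 6 libraries held a peak outside the windows. In IFNGR2 the peaks began 996 to 1420 bp inside the gene, at the window's edge or beyond it.

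Strong regions also lay inside members, away from the gene ends. IFIT3 held a region on chromosome 10 (89333712 to 89334395) at score percentiles of 90.4, 92.5 and 94.1 in the NG and 91.1, 91.3 and 87.2 in the SMG libraries. It lay 1183 bp from the nearer listed start, 5715 bp into the gene, and its mean percentile of 91.1 exceeded the 55.7 of IFIT5, the highest at a gene end of the cluster. In ISG20 the start listed by RefSeq, 3384 bp inside the gene, sat in a region (chromosome 15, 88638614 to 88639365) at score percentiles of 97.5, 96.1 and 96.7 in the NG and 95.5, 96.9 and 91.3 in the SMG libraries, while the region at the gene end averaged 50.98. RSAD2 held 3 internal regions in all 6 libraries, at mean percentiles of 60.8, 45.7 and 39.5. The first (chromosome 2, 6877332 to 6878194) lay at a listed start with an ISRE core, 11892 bp inside the gene, at score percentiles of 61.02, 48.5 and 71.3 in the NG and 74.9, 63.5 and 45.5 in the SMG libraries. USP18 held 1 such region (chromosome 22, 18163976 to 18165064), with a mean of 56.6, at score percentiles of 46.3, 63.4 and 36.4 in the NG and 61.3, 65.5 and 66.7 in the SMG libraries.

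Across the 44 genes, 77 union regions (peaks of the 6 libraries merged where they overlapped) lay at the gene ends or within the span, and 36 of them were held by all 6 libraries. Within the spans there were 70 regions, of which 34 (48.6%) were held by all 6 and 11 (15.7%) by 1 library, where 34.6% and 34.9% of all 69562 union regions were. The 23 constant regions in the spans that touched a gene-end window had a median percentile of 71.3 and the 11 away from the ends one of 46.3.

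**Figure D3:**
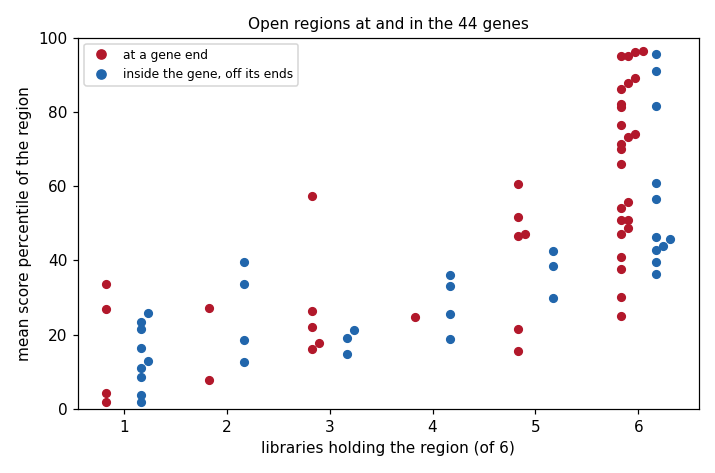
Mean score percentile (vertical axis) of the 77 regions at or in the 44 genes by the number of libraries holding them (horizontal axis, of 6), split by place. Every region above the 60.5 of IFI35 was held by all 6 libraries, and the constant regions inside genes range from 36.2 to 95.7.

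Promoters of the members were searched for the letters of both elements. An ISRE core was found in 21 of the 47 member promoters (44.7%) and in 3.17% of the 22198 promoters of protein-coding genes in the same table. A GAS element was found in 9 (19.1%) and in 6.79%. Promoters of 1 gene can overlap and share a core, as those of IFI27 and IFI44 do. The search needs exactly 2 bases between the GAAA runs. Copies with 1 base between them were not counted. They occur in OAS1, in the RSAD2 promoter at the gene end, in promoters of IFI16 and IRF5 and at the MX1 start 5681 bp inside the gene, among others. These promoters are therefore among those without a core, which are a mixed group. Of the 21 promoters with an ISRE core 6 carried a peak in all 6 libraries (28.6%) and 7 in none (33.3%). Of the 26 without one these counts were 11 (42.3%) and 7 (26.9%). The same shares over all promoters were 31.9% and 55.5% with a core, and 38.5% and 48.97% without one.

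CpG content of the promoters was also described, since CpG-rich promoters are commonly open in many cell types. Member promoters held a median of 12 CpG dinucleotides in 300 bp, fewer than the 21 of all protein-coding promoters. With a peak in all 6 libraries the median was 19 over 17 member promoters, and with a peak in none it was 8 over 14. Among all promoters these medians were 26 and 8. Of the 23 member promoters with under 10 CpG, 6 (26.1%) had a peak in all 6 libraries, where 5.93% of all such promoters did. They belonged to IFI6, IFI16, RSAD2, IRF9 and IRF8, the last with both of its starts. Of the 24 with 10 or more CpG, 11 (45.8%) did, where 52.1% of all such promoters did. This share was not tested, as the members were chosen as a set.

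**Figure D4:**
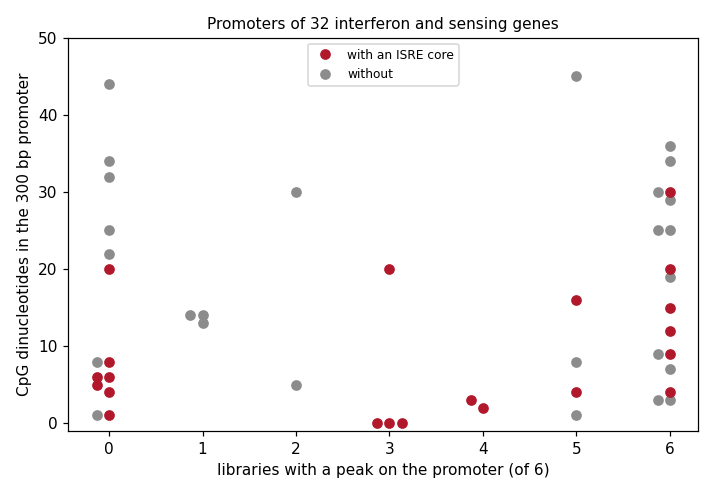
Number of CpG dinucleotides in each of the 47 promoters of 32 genes (vertical axis) by the number of libraries, of 6, with a peak on those 300 bp (horizontal axis); red points hold an ISRE core. Promoters without a peak range from 1 to 44 CpG and those with a peak in all 6 libraries from 3 to 36.

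The comparison of the groups asked whether these genes were open in 1 condition alone. Of the 44, 0 were open in every SMG and no NG library, and 0 in every NG and no SMG library. The background for each of these calls was 0.0998% of 20033 genes (20 genes in each direction). As 3 libraries against 3 allow no exact p below 0.1 (Fisher's exact test, two-sided), no single gene could pass 0.05. A difference of at least 2 libraries was seen for 2 members with more SMG libraries, IFNGR2 and IFITM1, and for 0 with more NG libraries. The background for it was 0.948% of genes with more SMG and 0.784% with more NG libraries. IFNGR2 is the gene whose region sat at the window's edge, and IFITM1 had 1 NG library open against 3.

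Open members numbered 25 in NG 1, 32 in NG 2 and 27 in NG 3, against 30 in SMG 1, 33 in SMG 2 and 34 in SMG 3. NG 1 was lowest and SMG 3 highest, and the groups overlapped, as NG 2 exceeded SMG 1. The peak names of SMG 3 carry the word "normalized", whose meaning is not given. Its list held 39624 peaks, and 52.2% of all protein-coding genes were open in it. The share of members exceeded that of all genes by 6.16, 17.7 and 7.35 points in NG 1 to NG 3. In SMG 1 to SMG 3 it did so by 14.4, 20.4 and 25.1 points. The NG mean was 63.6% ± 8.19 of the members and the SMG mean 73.5% ± 4.73 (SD over 3 libraries per group), a difference of 9.85 percentage points. In the same libraries 53.2% ± 2.27 and 53.6% ± 1.24 of all protein-coding genes were open. No p is given for a share over a chosen set. With the same number of peaks taken from every library, the 18891 highest by −log10 q, the difference was 1.52 percentage points (42.4% ± 2.62 against 43.9% ± 5.72), within the spread of either group. In these equal lists 41.4% of all protein-coding genes were open in the NG and 40.6% in the SMG libraries. The shortest full list held 37782 peaks, so this setting dropped the weaker peaks of every library as well as making the lists equal. Members open in some libraries had mostly weak peaks, so list length and peak strength cannot be told apart here. With a score of at least 50 the difference was 7.58 percentage points. Without NG 2 it was 14.4, without NG 1 it was 6.44 and without SMG 3 it was 7.95. The NG and SMG shares of all protein-coding genes were 52.3% and 53.6% without NG 2. They were 54.5% and 53.6% without NG 1, and 53.2% and 54.2% without SMG 3.

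**Figure D5:**
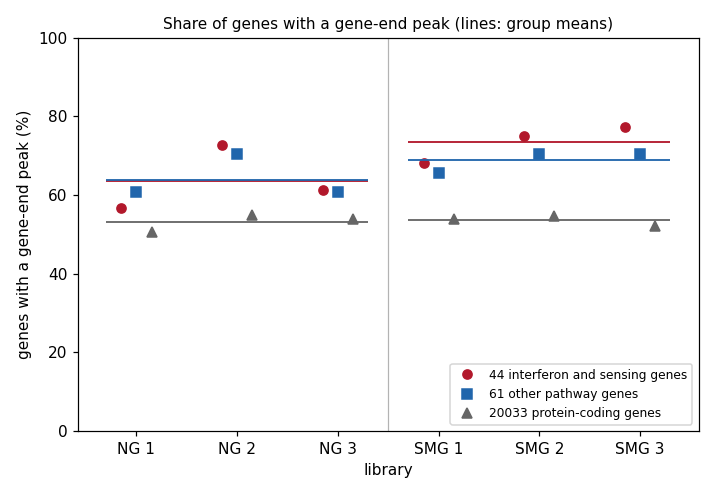
Percentage of genes with a gene-end peak in each library for the 44 genes (circles), 61 other pathway genes (squares) and all 20033 protein-coding genes (triangles); lines are group means. The circles run from 56.8% in NG 1 to 77.3% in SMG 3, and those of the 2 groups overlap.

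By construction that difference lay in the 13 members open in some libraries. Of these, 12 had more SMG than NG libraries open and 1, IFI35, had more NG libraries. Among the 2740 genes of all kinds open in 1 to 5 libraries, 43.0% had more SMG and 36.8% more NG libraries. The 13 were open 3, 10 and 5 times in NG 1 to NG 3 and 8, 11 and 12 times in SMG 1 to SMG 3, so that NG 2 stood among the SMG libraries. In the same libraries 29.9%, 61.5% and 54.4%, then 52.8%, 59.0% and 41.2%, of all such genes were open. NG 1 also had the lowest background and the fewest peaks. The recovered background was 1.17, 1.77 and 1.42 in NG 1 to NG 3 and 1.59, 1.73 and 1.59 in SMG 1 to SMG 3. The group means were 1.45 and 1.64, and NG 2 had the highest value of all. The part of depth in these counts was not tested. Of the 6 members open in exactly 5 libraries, 3 (IRF7, IFITM3 and RSAD2) lacked the peak in NG 1, as did 45.2% of all genes open in 5. Without NG 1, comparing the shares of libraries open, the counts were 9 and 1, where 42.1% and 57.9% of all such genes leaned to SMG and NG. With the same number of peaks from every library, which left 12 members open in some libraries, they were 3 and 2, where the shares of all such genes were 34.2% and 45.8%. With listed gene starts alone they were 6 and 2, where the shares of all such genes were 42.4% and 36.8%.

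Regions within the gene span gave a further readout. Of the 38 members with a region in the span, 0 had more regions in every SMG than in every NG library and 0 the reverse, where 0.914% and 0.505% of 14656 genes with a region did. IRF2 fell short by a tie of NG 2 with SMG 1, with 2, 3 and 2 regions in the NG and 3, 4 and 4 in the SMG libraries. Other members also fell short by a tie, such as IFI16 (1, 3 and 2 against 3, 3 and 3) and IFITM1 (0, 1 and 0 against 1, 1 and 1). In the reverse direction IRF4 (1, 2 and 1 against 1, 0 and 0) and IRF5 (1, 2 and 0 against 0, 0 and 0) fell short by a tie. The share of all genes that fell short by a tie was not counted. All 3 internal regions of IRF2 were weak, at mean percentiles of 14.7 to 29.9. Of the 70 regions within the spans, 0 were held by the whole of 1 group and absent from the other, where 0.411% of all union regions were SMG-only and 0.26% NG-only.

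A list of 61 other genes of the pathway was written with earlier results of these data known. Of these, 34 (55.7%) were open in all 6 libraries, 14 (22.95%) in 1 to 5 and 13 (21.3%) in none. The shares among all protein-coding genes were 46.6%, 13.7% and 39.7%. Some of the 61 were named for their place in the pathway, after their values were seen. TYK2, a kinase of the type I receptor, had a mean percentile of 91.4, and STAT3, a cytokine-activated factor, one of 93.1. RIGI, the other main RNA sensor, JAK1 and JAK2 were open in all 6 libraries. The interferon genes IFNA1, IFNA2, IFNB1, IFNE, IFNG and IFNK were without a gene-end peak throughout, while IFNL1 had one in NG 2 alone. Of the 61, 0 were open throughout 1 group and in no library of the other (background 0.0998% in each direction). Those with at least 2 more SMG libraries were TAP1, a peptide transporter, and PSMB8, a proteasome subunit, with peaks in NG 2 and all 3 SMG libraries at mean percentiles of 26.6 and 22.9. The 2 genes are neighbours and had the same percentile in NG 2 (24.2), SMG 1 (39.99) and SMG 2 (16.4), where 1 peak counted for both. The background for at least 2 more SMG libraries was 0.948% of all protein-coding genes. The share of the 61 genes open averaged 63.9% ± 5.68 in the NG and 68.9% ± 2.84 in the SMG libraries (SD over 3 libraries per group), and the groups overlapped. For all protein-coding genes it averaged 53.2% and 53.6%. CMPK2 and AIM2 were called on the same peaks as the members RSAD2 and IFI16, so this list is not independent of the members.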

How the data were processed

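The authors deposited 1 peak list per library, in the 10 columns of the MACS2 narrowPeak layout. Per the submitters' processing notes, FastQC, BWA, Bowtie, SAMtools and MACS2 were used on hg38; their versions and settings, the duplicate handling and any read shift were not given in the sources used here. Names of the deposited peaks show 1 call per library, and the names of SMG 3 carry the word "normalized", whose meaning is not given. The deposited score is the whole part of 10 times the −log10 q-value for at least 99.955% of peaks. The deposited fold enrichment, a linear ratio, and −log10 p-value are those of the authors' peak caller, and the largest deposited q-value of a list was 0.0474 to 0.0496.

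Python 3.11.15 with pandas 2.3.3 and scipy 1.17.1 was used. Peaks were ranked within each library by −log10 q-value (percentiles, ties averaged). Gene ends came from RefSeq (GRCh38.p14, 20033 protein-coding genes on 24 chromosomes), with windows of 1000 bp to each side of both ends. Peaks of the 6 libraries overlapping by 1 bp were merged into union regions. Summit pileups and the background were solved from fold enrichment and −log10 p-value with the formulas of MACS2, to within 0.001 of the deposited value for 99.947 to 99.966% of peaks. Promoter sequences came from the RefSeq promoter table (GRCh38.p14).

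Groups were taken from the sample titles. Calls were made on all protein-coding genes, and the members are read against the share called. On simulated data the gene-end call for peaks confined to 1 group recovered every planted gene. The peaks were planted to meet that rule, so the test checks the code alone and gives no error rate. It does not cover the count of regions in the span or the difference of at least 2 libraries. Values per library were named for members open in 1 to 5 libraries and for the 10 open in all 6 with the highest mean percentile, and for the 5 strongest constant regions inside members; the others are given by counts and means. Besides the 44 members, lists of 61 other pathway genes and of T cell, B cell, myeloid, NK cell and erythroid markers were used. The members and lists were chosen with earlier results of these data known, so no p is given for a score over them. A p-value here covers the spread among libraries alone, and that spread may be technical. Alternatives changed the window, the overlap, the peak threshold, the list length and the libraries used.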

Additional observations from a re-analysis of the deposited data

How the results depend on the processing

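The difference in the share of members open (SMG minus NG) was above 0 under every alternative run, at 4.17 percentage points with listed gene starts alone and 5.30 with the 3 kb window. With a score of at least 50 it was 7.58 percentage points. With the same number of peaks per library it was 1.52 percentage points, with 14 of the 44 members open in all 6 libraries and 18 in none. Of all protein-coding genes 33.4% were open in all 6 libraries and 51.7% in none with these lists. That last setting also dropped the weaker peaks of every list. Leaving out 1 library at a time gave 6.44 to 14.4 points (the highest without NG 2), 0 to 1 member open in every SMG and no NG library (IFITM1 without NG 2, IFNGR2 without SMG 2) and 0 to 2 other pathway genes (TAP1 and PSMB8 without NG 2), where 0.354% of all genes without NG 2 and 0.220% without SMG 2 were called. Members open in some libraries with more NG than SMG libraries numbered 2 of 13 with the 500 bp window and 2 of 11 with the 3 kb window. They numbered 2 of 16 with a score of at least 50. The shares of all such genes were 36.2%, 36.5% and 34.2%. When a library was left out the number was 0 to 1, where 40.1% to 57.9% of all such genes leaned to NG. With the window at listed gene starts alone (32 members) the split was 6 with more SMG against 2 with more NG libraries. The shares of all such genes were 42.4% and 36.8%. With equal lists the split was 3 against 2, where these shares were 34.2% and 45.8%. These splits were examined after seeing the data. Members with more regions in the span in every SMG than in every NG library numbered 1 with a score of at least 50 (ADAR), 1 by peak centres (IRF2) and 0 to 3 when a library was left out (IFI16, IRF2 and IFITM1 without NG 2, IRF2 without SMG 1), and the reverse 0 to 1 (IRF5 without NG 3, IRF4 without SMG 1). The shares of all genes called were 0.766% at that score, 1.25% by peak centres, 2.63% without NG 2 and 1.94% without SMG 1, and for the reverse 1.42% without NG 3 and 1.19% without SMG 1.

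Same-numbered libraries did not deviate together (correlations of −0.0106 to 0.0195 over union regions), so the numbers were not used as pairs. As a replicate block, the paired differences in the share of members open averaged 9.85 percentage points, with an SD of 6.94, and 1 member, IRF2, had more regions in the SMG library of each pair, as did 1.66% of all genes. The best match of a library was its own number in 1 of 3 pairs (NG 2 and SMG 2). For the other pathway genes the difference in share was 0 points with equal lists and up to 8.20 without NG 2. Depth is known only through the recovered background, and signal that missed the calling threshold is invisible here.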
